A study of Caenorhabditis elegans with 4 samples.

Results

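The genes described here are the 20 vha genes of the vacuolar ATPase and 24 genes of autophagy and the lysosome, 44 of the 46904 genes in the deposited count tables. The vacuolar ATPase genes are those whose name is vha and a number, and the 24 others were chosen by name. RNA came from whole wild-type hermaphrodites of the nematode Caenorhabditis elegans, strain Bristol N2, about 200 worms in each group. The worms labelled OP50 + MH-1 ate MH-1, a Lactiplantibacillus and so a lactic acid bacterium, which the treatment label names together with OP50 and another text names alone. In the group labelled OP50 the food was Escherichia coli OP50, the usual laboratory food of worms. Each group had 2 libraries. No label ties them to separate cultures of worms, and the p-values therefore rest on a spread that may be technical. The labels give the worms as 4 days old and fed for 1 day in one place, and as 1 day old and cultured for 2 days in another.

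Every direction below rests on the sample titles. The 4 deposited tables carry column headers that contradict those titles and swap the foods, so that under the headers each "higher" becomes "lower" with the same size and p-value. The tables hold 15771890 and 21572225 reads in genes for OP50 + MH-1, and 18485858 and 17593775 for OP50. Levels are CPM (counts per 1e6, on the TMM-adjusted library total), and levels are compared between genes as CPM per kilobase of the deposited gene length. Markers of intestine, germline, muscle and neurons were all detected, and the 6 vitellogenins, yolk proteins of the adult hermaphrodite, summed to between 41690 and 70220 CPM in the 4 libraries.

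Autophagy wraps part of the cytoplasm in a double membrane, the autophagosome, which then fuses with the lysosome, where the content is broken down. Initiation kinases and lipid-supplying proteins start the membrane, ubiquitin-like conjugation systems attach ATG8 proteins to it, and receptors bring cargo. The vacuolar ATPase is a proton pump that acidifies lysosomes and other compartments, with a soluble V1 sector that splits ATP and a membrane V0 sector that carries protons. In worms it also works at the surface of the intestine, the epidermis and the excretory canal. The transcription factor HLH-30, the worm homologue of TFEB, is known to drive many autophagy and lysosome genes.

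All 44 genes passed the filter on low counts. None of the 20 vacuolar ATPase genes passed the test, while 2 of the 24 autophagy and lysosome genes did: with the OP50 + MH-1 label, epg-2 rose and atg-2 fell (edgeR quasi-likelihood test, adjusted p under 0.05). Over all 12640 genes tested, 272 or 2.15% were called, so 0 of 20 lies near the background, and 2 of 24 is 8.33%. Higher calls were 1.82% and lower calls 0.332% of all genes. The call of atg-2 was lost in 5 of the 11 alternatives, with a fold change of similar size in each. The 272 calls became 111 when OP50 + MH-1 replicate 1 was left out, and 466 when replicate 2 of that group was. The median log2 fold change was 0.03 for the vacuolar ATPase genes, -0.03 for the autophagy and lysosome genes and 0.003 for all genes tested. Scaled by total counts alone, these medians were 0.07, 0.02 and 0.046.

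**Figure D1:**
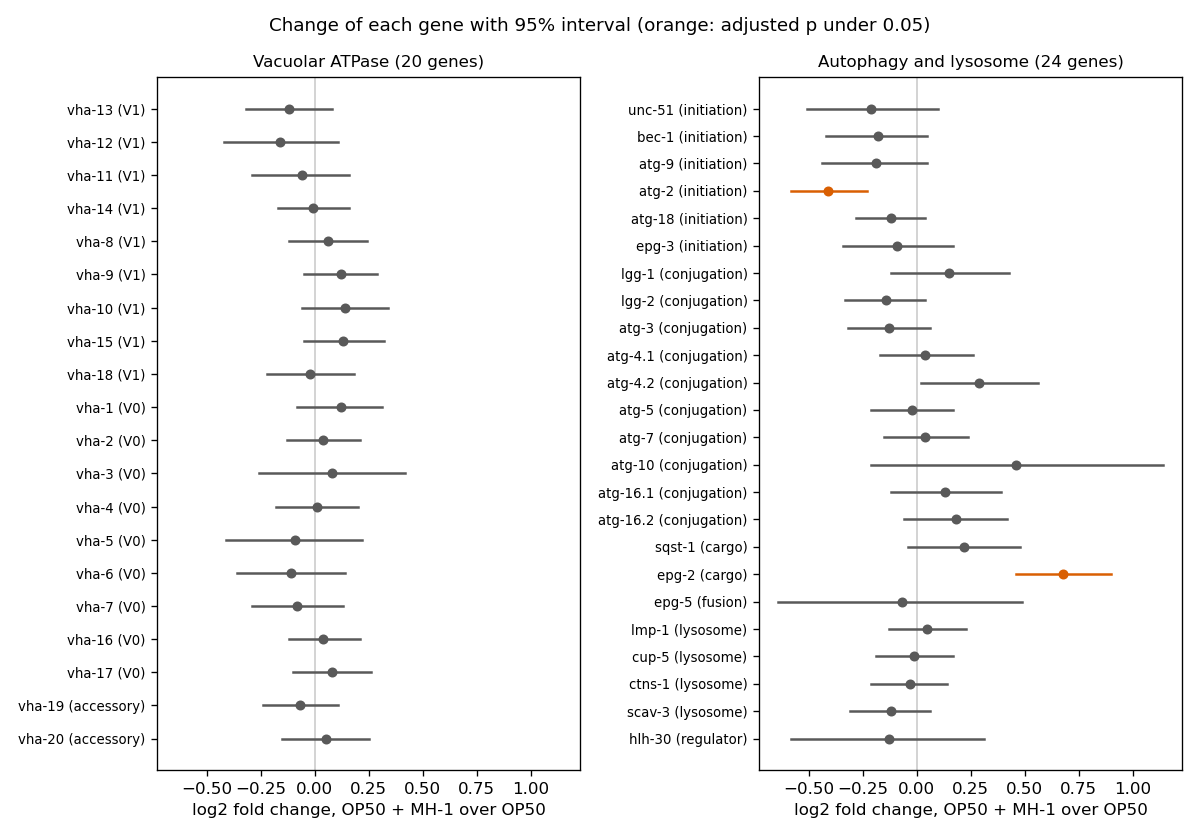
Log2 fold change of each gene, OP50 + MH-1 over OP50, with its 95% interval, for the vacuolar ATPase (left) and for autophagy and the lysosome (right), ordered by role. The vacuolar ATPase genes lie between -0.16 and 0.14, and the called genes, in orange, are epg-2 at 0.68 and atg-2 at -0.41.

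The log2 fold changes of the vacuolar ATPase genes ran from -0.16 for vha-12 to 0.14 for vha-10, and 11 were positive and 9 negative. All 20 had a log2 fold change under 0.25 in size, against 62.8% of all genes tested. Their median SE was 0.08, against 0.17 over all genes. The share under 0.25 in size was 57.1% for the 21 tested genes of a list of lysosome membrane and fusion. It was 100% for the 20 tested genes of a list of other autophagy genes and 90.5% for a list of TOR and nutrient kinase genes. A high share was therefore not particular to the vacuolar ATPase. The widest 95% intervals reached -0.42 and 0.42, so that for each gene a change of over 1.34-fold lay outside its interval. None had an unadjusted p under 0.05 (edgeR), where 14.1% of all genes did, and none was called by DESeq2 or limma-voom. In 7 of the 20 genes, or 35.0%, the groups did not overlap, 6 higher and 1 lower with the OP50 + MH-1 label, against 46.0% of all genes (24.4% higher and 21.6% lower). The summed level of the 20 genes was 2852 and 2952 CPM with the OP50 + MH-1 label, and 2990 and 2803 CPM with the OP50 label. The ranges of the sums overlap. The replicates also lay close together: the median difference between replicates was 0.07 on the log2 scale with the OP50 + MH-1 label and 0.09 with the OP50 label, against 0.18 and 0.15 over all genes.

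In the V1 sector, which splits ATP, none of 9 genes passed the test, with a median log2 fold change of -0.01. The catalytic A subunit gene vha-13 (chromosome V, 14351207 to 14354421 in ce11) had 203 and 211 CPM with the OP50 + MH-1 label, and 239 and 210 CPM with the OP50 label. The B subunit gene vha-12 (chromosome X, 4191094 to 4193144) had 177 and 201 CPM with the OP50 + MH-1 label and 231 and 190 CPM with the OP50 label. In both genes the groups overlap, and the first OP50 library is the highest. The log2 fold change was -0.12 ± 0.09 (SE) for vha-13 and -0.16 ± 0.11 for vha-12, with adjusted p = 0.601 for each (edgeR). The G subunit gene vha-10 (chromosome I, 5609310 to 5610270), which encodes part of the peripheral stalk, had 140 and 125 CPM with the OP50 + MH-1 label and 124 and 117 CPM with the OP50 label. Its groups do not overlap, but its log2 fold change of 0.14 ± 0.08 did not pass (edgeR adjusted p = 0.516). The F subunit gene vha-9 (chromosome II, 10303007 to 10303713), part of the central rotor, stood at 123 and 123 CPM with the OP50 + MH-1 label and at 110 and 116 CPM with the OP50 label. Here too the groups do not overlap and the difference of 0.12 ± 0.07 did not pass (edgeR adjusted p = 0.509). The other genes that do not belong to a set of paralogs are vha-11 and vha-8, for the C and E subunits of the peripheral stalk, and vha-14, for the D subunit of the rotor, with log2 fold changes of -0.06, 0.06 and -0.01.

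The H subunit, which joins V1 and V0 and regulates the pump, is encoded by vha-15 and vha-18. vha-15 (chromosome X, 2237911 to 2240255) had 91.5 and 97.5 CPM with the OP50 + MH-1 label, and 88.4 and 83.8 CPM with the OP50 label. Of the vacuolar ATPase genes it had the smallest p, with a log2 fold change of 0.13 ± 0.08 (SE) and an adjusted p of 0.504 (edgeR). vha-18 (chromosome V, 8411775 to 8413513) had 51.7 and 52.9 CPM with the OP50 + MH-1 label and 53.2 and 52.8 CPM with the OP50 label. Its groups overlap, at a log2 fold change of -0.02 ± 0.08 (edgeR adjusted p = 0.952). The higher of the pair was vha-15 in every library: per kilobase it made up 60.1% and 61.1% of their summed level with the OP50 + MH-1 label, and 58.6% and 57.5% with the OP50 label, without overlap.

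In the membrane V0 sector none of 9 vha genes passed the test, with a median log2 fold change of 0.04. Its large a subunit, which lets protons reach the ring, comes in several forms with their own tissues in worms. vha-6 (chromosome II, 11435212 to 11438464) encodes the form of the intestine, and had 96.4 and 118 CPM with the OP50 + MH-1 label, and 119 and 113 CPM with the OP50 label. The groups overlap, and the first OP50 + MH-1 library is the lowest. Its log2 fold change was -0.11 ± 0.11 (SE, 95% interval -0.36 to 0.14, edgeR adjusted p = 0.699). None of 10 intestine markers was called by edgeR or limma-voom, and DESeq2 called 1 lower. In 4 (40%) the unadjusted p was under 0.05 (edgeR), all of them lower, against 14.1% of all genes (4.61% lower). The intestine markers were chosen with earlier results of these data known, so this share is not an independent test. Log2 fold changes were negative in 6 of the 10 and positive in 4: elt-2 (0.39), elt-7 (0.25), pept-1 (0.10) and act-5 (0.01). The 10 markers summed to 1383 and 1732 CPM with the OP50 + MH-1 label and 2142 and 2420 CPM with the OP50 label. Most of that sum is the aspartyl protease asp-1, at 1101 and 1427 CPM with the OP50 + MH-1 label and 1832 and 2096 CPM with the OP50 label. No intestine marker was at 0, and their part in the level of vha-6 was not tested. Fewer cells of a type and less RNA per cell cannot be told apart in whole worms.

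vha-7 (chromosome IV, 12640447 to 12650652), the a subunit form of the epidermis and uterus, had 144 and 167 CPM with the OP50 + MH-1 label and 162 and 167 CPM with the OP50 label. The groups overlap, at a log2 fold change of -0.08 ± 0.09 (SE, edgeR adjusted p = 0.75). Of 10 markers of the epidermis and molting, 9 were tested and 4 rose, dpy-7, noah-1, noah-2 and mlt-11, or 44.4% against 2.15% of all genes, and limma-voom called 3. Of the other 5, none passed, and rol-6, col-10 and nas-37 had negative log2 fold changes (-0.46, -0.45 and -0.23). This list and that of the excretory cell were chosen with earlier results of these data known, so their shares are no independent test. The 10 markers summed to 620 and 548 CPM with the OP50 + MH-1 label and 408 and 331 CPM with the OP50 label, bli-1 was at 0 in all libraries, and their part in the levels of vha-7 and vha-5 was not tested. vha-5 (chromosome IV, 8303968 to 8307369), the form of the excretory canal and epidermis, had 19.01 and 21.4 CPM with the OP50 + MH-1 label and 22.9 and 20.3 CPM with the OP50 label. It was the lowest vacuolar ATPase gene per kilobase, at 7.05 CPM per kilobase over all 4 libraries, and its log2 fold change was -0.09 ± 0.13 (edgeR adjusted p = 0.816). Among 8 excretory cell markers, 7 were tested and 1 was called, or 14.3% against 2.15% of all genes. This was the transcription factor gene pros-1, which rose by 1.91 on the log2 scale (edgeR adjusted p = 0.0471, called by DESeq2 and not by limma-voom). Of the 7, 5 had positive log2 fold changes and 2 negative ones, pgp-12 (-0.97) and exc-4 (-0.07). The 8 markers summed to 73.5 and 67.1 CPM with the OP50 + MH-1 label and 61.0 and 64.8 CPM with the OP50 label, none was at 0 in all libraries, and their part in the level of vha-5 was not tested. The remaining a subunit gene, unc-32, which is known for its role in neurons, is not named vha and so is no member of the set. It had 118 and 129 CPM with the OP50 + MH-1 label and 126 and 123 CPM with the OP50 label, a log2 fold change of -0.01 ± 0.08 (edgeR adjusted p = 0.973). Per kilobase, vha-7, vha-6 and unc-32 each gave between 27.2% and 34.3% of the summed a subunit level in every library, and vha-5 gave between 5.46% and 6.05%.

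The proton-carrying ring is built from c and c'' subunits. vha-2 (chromosome III, 9782164 to 9783212) was the highest vacuolar ATPase gene per kilobase, at 384 CPM per kilobase over all libraries. It had 368 and 373 CPM with the OP50 + MH-1 label, and 362 and 359 CPM with the OP50 label. The groups do not overlap, yet the log2 fold change was 0.04 ± 0.07 (SE, edgeR adjusted p = 0.862). vha-3 (chromosome IV, 2314589 to 2315990) had 15.1 and 17.2 CPM with the OP50 + MH-1 label and 15.3 and 15.2 CPM with the OP50 label, or 11.2 CPM per kilobase. Its groups overlap, with a log2 fold change of 0.08 ± 0.14 (edgeR adjusted p = 0.86). vha-2 and vha-3 are known to encode the same protein, and reads that match either gene could be split between them or dropped, so the level of each is uncertain. vha-1 (chromosome III, 9781243 to 9782057) ends 106 bases before vha-2 on the same strand, and had 121 and 109 CPM with the OP50 + MH-1 label and 110 and 102 CPM with the OP50 label. Its groups overlap, with a log2 fold change of 0.12 ± 0.08 (edgeR adjusted p = 0.601). Similarly, vha-3 lies 21 bases from vha-11 on the same strand. Despite that closeness vha-11 stood at 87.1 CPM per kilobase and vha-3 at 11.2, and vha-1 stood at 136 CPM per kilobase and vha-2 at 384. The c'' subunit gene vha-4 (chromosome II, 7878083 to 7879406) had 189 and 200 CPM with the OP50 + MH-1 label and 202 and 184 CPM with the OP50 label, overlapping groups with a log2 fold change of 0.01 ± 0.08 (edgeR adjusted p = 0.971).

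The other V0 genes were vha-16 (d subunit) and vha-17 (e subunit), with log2 fold changes of 0.04 and 0.08. vha-17 was the second highest per kilobase, at 346 CPM per kilobase. The accessory protein genes vha-19 and vha-20, homologues of human ATP6AP1 and ATP6AP2, had log2 fold changes of -0.07 and 0.05 and levels of 56.0 and 90.6 CPM per kilobase. The order from vha-2 to vha-5 spans the genes for 1 complex. In its middle, the libraries of vha-20, vha-13, vha-11 and vha-16 overlap, at means of between 86.1 and 90.6 CPM per kilobase, so their order is not resolved. Reads in exonic bases that genes share on the same strand cannot be assigned with certainty. On opposite strands this depends on the strand setting of the counting, which no source used here gives. Such overlap touches vha-5, vha-17, vha-18 and vha-19 on opposite strands, and vha-4 and vha-13 on the same strand, by between 12 and 81 exonic bases.

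**Figure D2:**
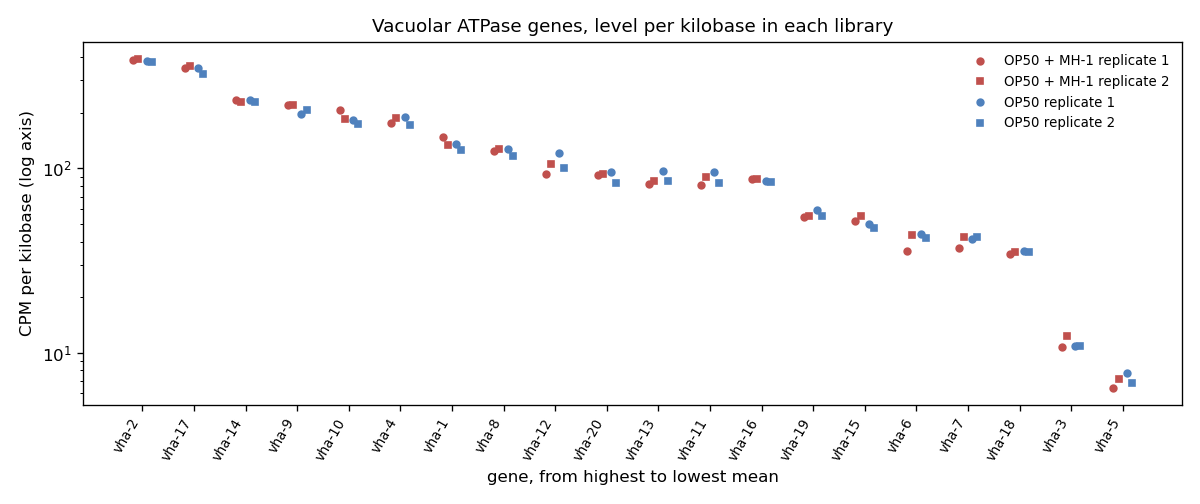
Level of each vacuolar ATPase gene in each library, in CPM per kilobase on a log axis, ordered from the highest to the lowest mean. The genes run from vha-2 at a mean of 384 to vha-5 at 7.05 CPM per kilobase, and the 4 libraries of a gene lie close together.

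Among the autophagy genes, the largest rise was in epg-2, which encodes a coiled-coil protein known in worm embryos as the adaptor that links P granule proteins to the autophagy machinery. epg-2 (chromosome I, 2300086 to 2302823) had 326 and 383 CPM with the OP50 + MH-1 label, and 222 and 221 CPM with the OP50 label. The groups do not overlap, and the OP50 libraries are nearly equal. epg-2 averaged 354 ± 40.1 CPM with the OP50 + MH-1 label and 221 ± 0.599 CPM with the OP50 label (SD, n = 2 each). It was 1.6-fold higher, at a log2 fold change of 0.68 ± 0.09 (SE) with an adjusted p of 0.0227 (edgeR). Under all 11 alternatives run it stayed called, with log2 fold changes between 0.56 and 0.80 and adjusted p-values up to 0.0277.

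Adult hermaphrodites carry embryos in the uterus, and markers of embryos were read beside epg-2. Of 12 embryo markers, 10 were tested and 4 rose, hch-1, sym-1, ceh-27 and nhr-25, and none fell. These 4 are 40% of those tested, against 1.82% of all genes called higher. The embryo list was chosen with earlier results of these data known, so this contrast is not an independent test. The others tested did not pass. Among them pes-10, tbx-37, hlh-1 and elt-1 had positive log2 fold changes, and end-1 and end-3 negative ones (-0.17 and -0.12). The 12 markers summed to 237 and 205 CPM with the OP50 + MH-1 label, and 94.2 and 72.1 CPM with the OP50 label, med-2 was at 0 in all 4, and med-1 had at most 2 reads. The part of embryo content in the rise of epg-2 was not tested. The exons of epg-2 share 87 bases with tpxl-1 on the opposite strand, and tpxl-1 did not pass, at a log2 fold change of -0.12 ± 0.12 (edgeR adjusted p = 0.752). sepa-1, named after its values were seen and encoding the receptor that epg-2 is known to act with in clearing P granule proteins, had 74.2 and 77.7 CPM with the OP50 + MH-1 label and 70.2 and 78.2 CPM with the OP50 label. Its groups overlap, at a log2 fold change of 0.03 ± 0.09 (95% interval -0.17 to 0.24).

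The other cargo gene, sqst-1, encodes the homologue of the ubiquitin-binding receptor p62. sqst-1 (chromosome IV, 12034252 to 12037051) had 141 and 115.6 CPM with the OP50 + MH-1 label and 104 and 115.4 CPM with the OP50 label. The second library of each label is almost level, and the first ones lie apart. The log2 fold change of 0.22 ± 0.11 (SE, 95% interval -0.04 to 0.48) did not pass (edgeR adjusted p = 0.431).

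The 6 genes for initiation and membrane supply all had negative log2 fold changes, with a median of -0.19, and 1 of them, atg-2, fell. Among the 6, epg-3 turned positive, at 0.05, when OP50 + MH-1 replicate 1 was left out. Initiation genes in the list of other autophagy genes went both ways, and none was called. Their log2 fold changes were -0.14 (epg-9), -0.07 (epg-6), -0.04 (atg-13), -0.01 (vps-15), 0.01 (epg-8) and 0.05 (vps-34). ATG-2 is a lipid transfer protein that feeds the growing membrane. atg-2 (chromosome X, 6809104 to 6817266) had 78.3 and 82.9 CPM with the OP50 + MH-1 label, and 104 and 109 CPM with the OP50 label. The groups do not overlap, and the gap between them is wider than that within each. atg-2 averaged 80.6 ± 3.27 CPM with the OP50 + MH-1 label and 107 ± 3.46 CPM with the OP50 label (SD, n = 2 each), a log2 fold change of -0.41 ± 0.08 (SE, edgeR adjusted p = 0.048). This call lies at the threshold: the adjusted p was 0.065 when scaled by total counts alone, 0.0731 by limma-voom, 0.0712 without OP50 replicate 1, 0.204 when OP50 replicate 2 was left out and 0.141 when OP50 + MH-1 replicate 1 was. In those 5 settings the log2 fold change of atg-2 was between -0.44 and -0.36, and over all 11 alternatives it was between -0.45 and -0.36. All 12 germline and oocyte markers also had negative log2 fold changes, with a median of -0.14, where 6272 of all 12640 genes tested did. None was called by edgeR or limma-voom, and DESeq2 called 1. An unadjusted p under 0.05 (edgeR) was found in 2 (16.7%), against 14.1% of all genes. These 12 markers summed to 8760 and 8913 CPM with the OP50 + MH-1 label and 10350 and 9853 CPM with the OP50 label, none was at 0, and their part in the fall of atg-2 was not tested.

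None of the other 5 initiation genes passed. The ULK1 homologue unc-51, the kinase that starts autophagy (chromosome V, 19995986 to 20004485), had 42.6 and 54.8 CPM with the OP50 + MH-1 label and 55.1 and 57.5 CPM with the OP50 label. Its lower OP50 + MH-1 library stands apart, and the log2 fold change was -0.21 ± 0.13 (SE, edgeR adjusted p = 0.541). bec-1, the Beclin homologue of the lipid kinase complex (chromosome IV, 5661141 to 5664425), had 59.8 and 51.9 CPM with the OP50 + MH-1 label and 65.0 and 61.6 CPM with the OP50 label. The groups do not overlap, at a log2 fold change of -0.18 ± 0.10 (edgeR adjusted p = 0.477). The lipid scramblase gene atg-9, the phosphoinositide-binding WIPI homologue atg-18 and the VMP1 homologue epg-3 had log2 fold changes of -0.19, -0.12 and -0.09. In 4 of the 6 initiation genes, atg-2, unc-51, bec-1 and atg-18, both OP50 + MH-1 libraries lay below both OP50 libraries, which 21.6% of all genes tested did. In unc-51 the nearest libraries of the groups stood at 54.8 and 55.1 CPM. The 6 genes were grouped with earlier results of these data known, so this share is not an independent test.

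**Figure D3:**
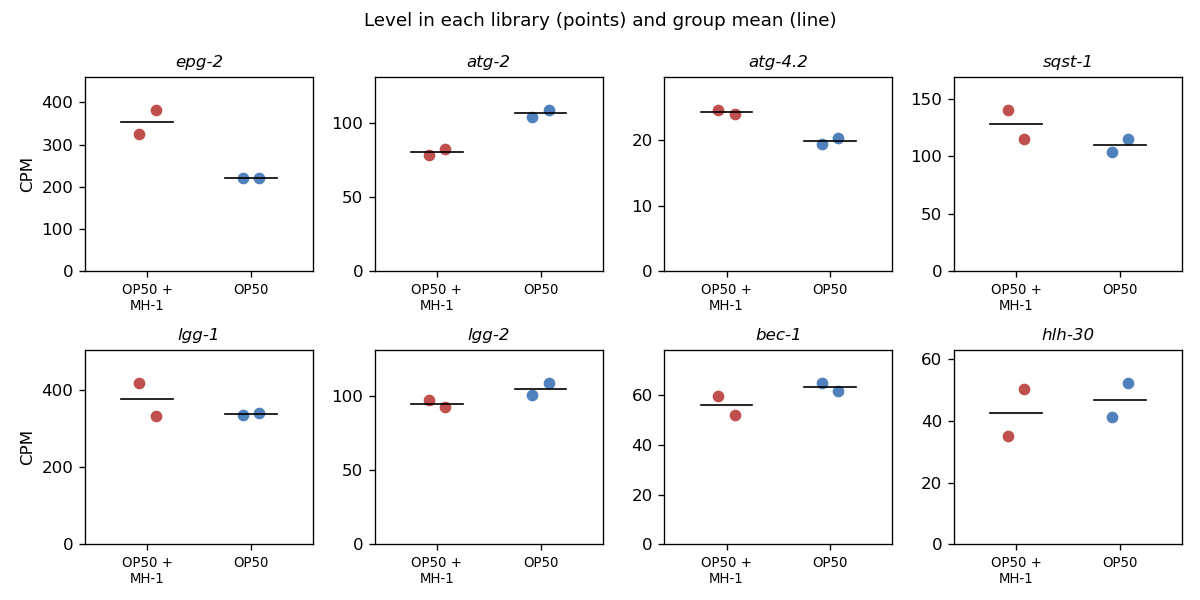
CPM of 8 autophagy genes in each library, with points for libraries and a line for each group mean, the OP50 + MH-1 label on the left of each panel. The groups lie apart in epg-2 (326 and 383 CPM with OP50 + MH-1, 222 and 221 CPM with OP50) and atg-2 (78.3 and 82.9 CPM with OP50 + MH-1, 104 and 109 CPM with OP50). They also do not overlap in atg-4.2, sqst-1, lgg-2 and bec-1, which were not called, and they overlap in lgg-1 and hlh-30.

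The conjugation systems, which attach ATG8 proteins to the membrane, had 10 genes, and none was called by edgeR. Only 1 (10%) had an unadjusted p under 0.05 (edgeR), against 14.1% of all genes. Log2 fold changes were positive in 7 and negative in 3 of the 10, with a median of 0.09. lgg-1 (chromosome II, 6346960 to 6347719), the homologue of the GABARAP type of ATG8 that coats autophagosomes, was the highest of the 24 genes, at 503 CPM per kilobase. It had 419 and 331 CPM with the OP50 + MH-1 label, and 335 and 339 CPM with the OP50 label. The groups overlap, since the OP50 + MH-1 libraries lie on both sides of the OP50 ones, and the log2 fold change was 0.15 ± 0.12 (SE, 95% interval -0.12 to 0.43, edgeR adjusted p = 0.62). lgg-2 (chromosome IV, 10934186 to 10935914), the homologue of the LC3 type, had 97.4 and 92.3 CPM with the OP50 + MH-1 label and 101 and 109 CPM with the OP50 label. Its groups do not overlap, but the log2 fold change of -0.14 ± 0.08 did not pass (edgeR adjusted p = 0.475). Per kilobase lgg-1 made up 86.6% and 84.4% of the ATG8 level with the OP50 + MH-1 label, and 83.4% and 82.4% with the OP50 label. The groups do not overlap in this share, and with 2 libraries in each no exact permutation test of the labels can give a p below 0.333.

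atg-4.2, a protease that processes ATG8 proteins (chromosome IV, 11668024 to 11671505), had 24.6 and 23.9 CPM with the OP50 + MH-1 label and 19.4 and 20.3 CPM with the OP50 label. The groups do not overlap, and the log2 fold change was 0.29 ± 0.11 (SE), with an unadjusted p of 0.038 and an adjusted p of 0.319 (edgeR). Its paralog atg-4.1 stood at 40.6 and 41.8 CPM with the OP50 + MH-1 label and 40.8 and 39.1 CPM with the OP50 label, where the groups overlap. Per kilobase atg-4.2 gave 41.6% and 40.3% of the summed level of the pair with the OP50 + MH-1 label and 35.9% and 37.9% with the OP50 label, and the groups do not overlap in this share. With atg-2 and epg-2, atg-4.2 made up the 3 of 24 genes (12.5%) with an unadjusted p under 0.05, against 14.1% of all genes. Of the 3, 2 were higher and 1 was lower, against 9.46% and 4.61% of all genes. The E1-like enzyme gene atg-7, the E2-like genes atg-3 and atg-10, and atg-5, whose product is joined to the ATG12 homologue, had log2 fold changes of 0.04, -0.13, 0.46 and -0.02. atg-10 was the conjugation gene with the fewest reads, at 3.59 and 4.38 CPM with the OP50 + MH-1 label and 2.75 and 3.06 CPM with the OP50 label, and its interval was wide (-0.21 to 1.14). The ATG16 homologues atg-16.1 and atg-16.2, which place the conjugation enzyme on the membrane, had log2 fold changes of 0.13 and 0.18, and atg-16.1 gave up to 54.4% of their summed level per kilobase. Exons of atg-7 overlap let-70 on the same strand by 67 bases, and those of lgg-2, atg-4.1, atg-10, epg-5 and cup-5 overlap a gene on the opposite strand by between 1 and 101 bases.

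**Figure D4:**
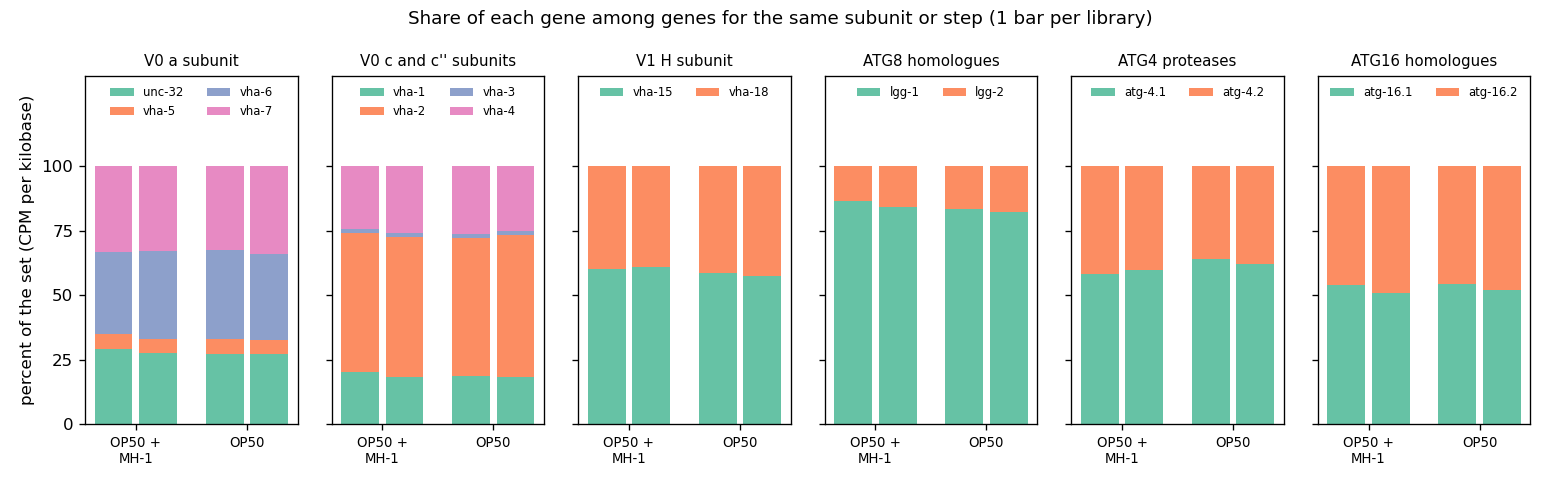
Share of each gene in the summed CPM per kilobase of genes for the same subunit or step, with 1 bar for each library and the OP50 + MH-1 label on the left. In the a, c and ATG16 sets no gene but unc-32 separates the groups. vha-2 holds between 53.2% and 55.1% of the c and c'' level, and the groups do not overlap in the H, ATG8 and ATG4 sets.

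No gene of fusion, lysosome membrane or control was called. epg-5, a tether for fusion of autophagosomes with lysosomes, was the lowest of the 24 genes at 2.41 CPM per kilobase, with 8.73 and 13.8 CPM with the OP50 + MH-1 label and 12.5 and 11.3 CPM with the OP50 label. lmp-1, the LAMP homologue of the lysosome membrane (chromosome X, 6376459 to 6377684), had 124 and 119 CPM with the OP50 + MH-1 label and 121.7 and 113 CPM with the OP50 label. cup-5, the homologue of the mucolipin calcium channel (chromosome III, 7584181 to 7591570), had 90.2 and 90.5 CPM with the OP50 + MH-1 label and 87.9 and 94.2 CPM with the OP50 label. In both the groups overlap, and the log2 fold changes were 0.05 ± 0.08 for lmp-1 and -0.01 ± 0.08 for cup-5 (SE, edgeR adjusted p = 0.843 and 0.971). The cystine exporter gene ctns-1 and the LIMP-2 homologue scav-3 had log2 fold changes of -0.03 and -0.12. The regulator hlh-30 (chromosome IV, 4014799 to 4034784) had 35.0 and 50.2 CPM with the OP50 + MH-1 label and 41.1 and 52.4 CPM with the OP50 label. Its groups overlap and its replicates differ widely, and the log2 fold change was -0.13 ± 0.19 (SE, 95% interval -0.58 to 0.31, edgeR adjusted p = 0.822). These values are RNA levels, and neither the location of HLH-30 nor the number of autophagosomes was measured.

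**Figure D5:**
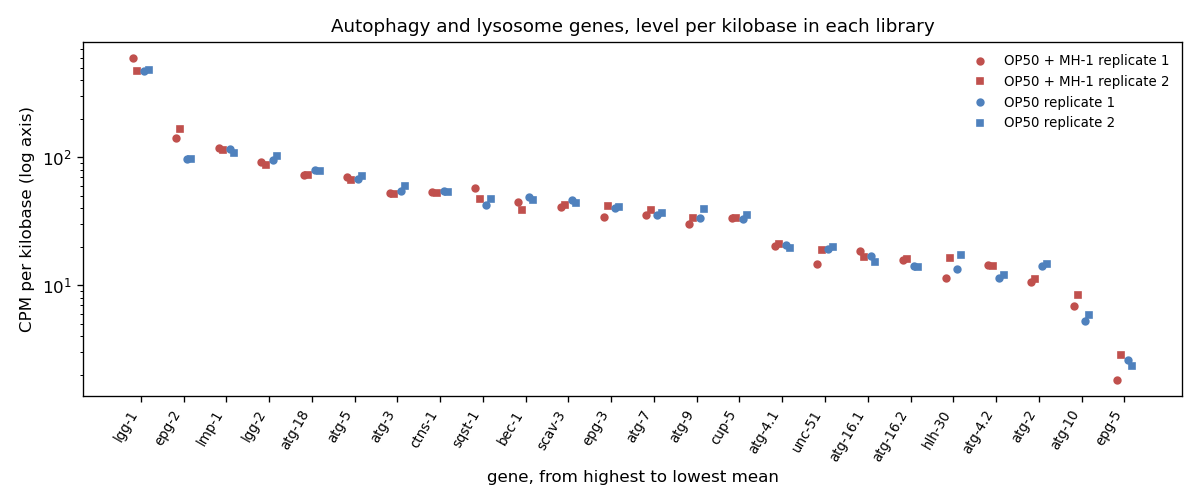
Level of each autophagy and lysosome gene in each library, in CPM per kilobase on a log axis, ordered from the highest to the lowest mean. The genes run from lgg-1 at a mean of 503 to epg-5 at 2.41 CPM per kilobase, and the libraries separate by label in 13 of the 24 genes, 5 higher and 8 lower with OP50 + MH-1, among them the called epg-2 and atg-2.

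The 24 autophagy and lysosome genes had 10 positive and 14 negative log2 fold changes, and 20 (83.3%) were under 0.25 in size, against 62.8% of all genes tested. The groups did not overlap in 13 of them (54.2%), 5 higher and 8 lower, against 46.0% of all genes. Their summed level was 2198 and 2185 CPM with the OP50 + MH-1 label, and 2056 and 2112 CPM with the OP50 label. The sums do not overlap, and epg-2, with a mean of 354 CPM under the OP50 + MH-1 label and 221 CPM under the OP50 label, is part of them. Without epg-2, a sum chosen after the values were seen, the other 23 genes had 1872 and 1803 CPM with the OP50 + MH-1 label and 1835 and 1891 CPM with the OP50 label, which overlap.

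Other genes of these pathways showed 1 call, where 2.15% of all genes tested were called. Of 22 further autophagy genes, 20 were tested (sqst-3 and sqst-4 were at 0 in all libraries) and none was called (0 with an unadjusted p under 0.05, and 0 called by DESeq2 or limma-voom). The ones with the smallest p were the late endosome GTPase gene rab-7, at a log2 fold change of -0.24 ± 0.11 (SE, edgeR adjusted p = 0.366), and the fusion SNARE gene snap-29, at -0.16 ± 0.08 (edgeR adjusted p = 0.41). Of 21 genes of TOR, Rag and nutrient kinases and their partners, only pha-4 was called, and it rose. This single gene is 4.76% of that list, against 1.82% of all genes called higher. pha-4 encodes the FOXA factor that specifies the pharynx in embryos and is also known to act in autophagy under low TOR. pha-4 had 32.5 and 32.5 CPM with the OP50 + MH-1 label and 14.4 and 13.02 CPM with the OP50 label, a log2 fold change of 1.25 ± 0.12 (edgeR adjusted p = 0.00936). As with epg-2, the part of embryo content was not tested. The TOR kinase gene let-363 and the Raptor homologue daf-15, named after their values were seen, had log2 fold changes of -0.25 ± 0.11 and -0.38 ± 0.14 (edgeR adjusted p = 0.393 and 0.298). In both genes the groups do not overlap, as in 57.1% of the 21 genes and 46.0% of all genes tested. let-363 had 129 and 163 CPM under the OP50 + MH-1 label and 174 and 172 CPM under the OP50 label. For daf-15 the levels were 189 and 239 CPM with the OP50 + MH-1 label and 310 and 248 CPM with the OP50 label. Among the alternatives, let-363 passed only when OP50 + MH-1 replicate 2 was left out, a fit with 1 library in that group. daf-15 passed only with no filter on low counts (edgeR adjusted p = 0.00148), where the calls over all genes rose from 272 to 1112. Of the 21 genes, 3 (14.3%) had an unadjusted p under 0.05 (edgeR), 1 higher and 2 lower, against 14.1% of all genes. The higher gene was pha-4, and the lower ones were daf-15 and rict-1 (log2 fold change -0.17). let-363 was not among them (edgeR unadjusted p = 0.0647). Of 22 genes of lysosome membrane and fusion, 21 were tested and none was called (0 called by DESeq2 or limma-voom). In this list 1 gene (4.76%) had an unadjusted p under 0.05 (edgeR), against 14.1% of all genes. The ones with the smallest p were spin-2, at 1.12 and 0.969 CPM with the OP50 + MH-1 label and 0.280 and 0.509 CPM with the OP50 label, and scav-1, at a log2 fold change of -0.42 ± 0.19 (edgeR adjusted p = 0.348 and 0.391).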

How the data were processed

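Per the labels' protocols, poly(A) RNA of whole worms went into stranded libraries. The submitters' processing notes name STAR 2.7.10a, featureCounts 2.0.1, cutadapt 3.7, Trim Galore 0.6.7 and Trimmomatic 0.39 and the build ce11 (WBcel235), without their order. For the strand setting and reads that match several places the sources used here give nothing. The authors deposited whole-number counts per gene, unnormalized, with the names, lengths and coordinates printed here. All 44 names matched the reference gene names, and 11 genes (3 vacuolar ATPase, 8 autophagy) had the same ends in the Ensembl annotation.

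Groups follow the sample titles. The test was edgeR 4.0.16 in R 4.3.3, with group as the only term in its quasi-likelihood test. Low genes were removed by filterByExpr (10 counts at least, 15 in total), scaling was by TMM, and the model was fitted to the whole table and adjusted by Benjamini-Hochberg over 12640 genes. A standard error is the log2 fold change divided by the square root of F, and 95% intervals use the test's degrees of freedom. The steps were run on simulated counts that took their spread from these same libraries, with planted changes larger than those of epg-2 and atg-2. That run cannot show whether the replicates are technical. Replicate libraries differed by more than sampling noise. Alternatives used DESeq2 1.42.0, limma 3.58.1 (voom), other scalings, filters and thresholds, robust dispersion, a replicate block and each library left out. With 3 counts as a floor, the limit is 0.138 to 0.186 CPM, and it covers counting error only. The members, the role groups and all lists were chosen with earlier results of these data known. Of the listed genes, rabc-1, bec-2 and lmtr-1 were not found by name. Genes named in full are the called members, 8 chosen autophagy genes, the subunits with paralogs, the members with the smallest p and the largest changes, and from other lists the called genes or the 2 with the smallest p. sepa-1, pros-1, tpxl-1, let-363, daf-15 and rict-1 were named outside that rule. Muscle, neuron, coelomocyte, epidermis and vitellogenin markers had 1, 0, 0, 4 and 0 called genes. Figures were drawn with matplotlib 3.10.9.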

Additional observations from a re-analysis of the deposited data

How the results depend on the processing

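The 272 genes called over the whole table became 1112 with no filter on low counts, 464 with DESeq2, 162 with limma-voom, 440 at an adjusted p under 0.1, and 111 to 466 with one library left out. With the replicate number as a block the count was 559, and the block changed no call among the 44 members. The numbers correlate at 0.209 over only 2 pairs, and nothing says what a shared number means. Vacuolar ATPase calls stayed at 0 under every alternative. The 2 autophagy calls became 1 with total counts as the only scaling and 1 with limma-voom, and 1 to 2 with one library left out, where atg-2 lost its call and epg-2 did not. The log2 fold change of atg-2 in these fits was -0.45 to -0.36. The 1 call in the other pathway lists became 2 with no filter, and 1 to 2 with one library left out. Among 484 pairs of a member and an alternative, 28 had the other sign, in 18 members whose log2 fold changes were at most 0.15 in size. With total counts as the only scaling, which moved the median of all genes to 0.046, the sign turned in vha-14 (0.04), vha-18 (0.02), atg-5 (0.02), cup-5 (0.03), ctns-1 (0.01) and unc-32 (0.03). With one library left out, the log2 fold change crossed 0 in vha-3 (-0.02 to 0.18), vha-4 (-0.05 to 0.08), vha-6 (-0.27 to 0.03), vha-7 (-0.19 to 0.02), vha-8 (-0.01 to 0.12), vha-11 (-0.16 to 0.04), vha-14 (-0.02 to 0.01), vha-18 (-0.04 to 0.00), vha-20 (-0.04 to 0.15), hlh-30 (-0.42 to 0.11), lgg-1 (-0.02 to 0.31), atg-5 (-0.06 to 0.02), atg-7 (-0.03 to 0.11), epg-3 (-0.23 to 0.05), epg-5 (-0.44 to 0.22), lmp-1 (-0.01 to 0.11), cup-5 (-0.06 to 0.04), unc-32 (-0.07 to 0.06) and sepa-1 (-0.04 to 0.11). Such a fit assumes that the lone library varies like the other group. The cause of these changes was not tested. With 2 libraries in each group the intervals set the limit: a change of over 1.34-fold lay outside the interval of every vacuolar ATPase gene, while that of atg-10 reached 1.14 on the log2 scale.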
